A study of Rattus norvegicus with 6 samples.

Results

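The genes described here are the G1 cyclins, the CDK inhibitors that act on them, and Myc, in the livers of rats with carbon tetrachloride (CCl4) fibrosis and of their controls. The 10 members were chosen by name, as the entries of the deposited FPKM table whose gene symbol was Ccnd1, Ccnd2, Ccnd3, Ccne1, Ccne2, Cdkn1b, Cdkn2a, Cdkn2b, Cdkn2c or Myc. They are 10 of 19616 genes in the table. The test took the 14864 genes whose FPKM averaged 0.1 or more across all 6 rats, 9 of them members, and Cdkn2a was left untested.

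Total RNA depleted of ribosomal RNA was sequenced from pieces of whole liver, so all cell types of the liver were measured together. All were SPF male SD rats treated over 5 weeks. In the FL group (liver fibrosis, n = 3, rats FL2, FL5 and FL12) each of the 2 weekly injections, given into the abdomen, held CCl4 and olive oil in equal parts at a dose of 2 mL per kg. In the CL group (control, n = 3, rats CL5, CL6 and CL7) olive oil alone made up that volume. The labels give each library as a separate rat, no genetic change is named, and age was not given in the sources used here. Alb, the gene of serum albumin, was the most abundant of the hepatocyte markers, at 33392 (CL5), 31431 (CL6) and 31992 (CL7) FPKM against 24149 (FL2), 25052 (FL5) and 25209 (FL12).

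FPKM is the number of fragments scaled by transcript length and by the total of mapped fragments, so levels of different genes can be set side by side. The number of reads behind each value was not analysed here. The spacing of the low values of U6 entries put the relative depth of the libraries between 0.656 (CL6) and 1 (CL5), with FL2 and FL12 at 0.677, FL5 at 0.75 and CL7 at 0.84. The table has 2 decimals, so a level of 0.01 FPKM is its smallest step.

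A cell in G1 enters S phase once cyclin-dependent kinases have phosphorylated the retinoblastoma protein, which frees the E2F factors. Cyclins of the D type activate Cdk4 and Cdk6, and cyclins of the E type then activate Cdk2. The INK4 inhibitors bind Cdk4 and Cdk6, p27 binds the cyclin E complexes, and Myc is a transcription factor of growth and cell cycle entry. In adult liver most hepatocytes rest outside the cycle and can return to it after loss of tissue, a step at which cyclin D1 is known to rise.

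Ccnd1 was several times higher in FL5 and FL12 than in any control, while FL2 lay near the controls. Cdkn2c was higher in every FL rat by a similar factor, from a low level in the controls. Ccnd2, Ccnd3 and Cdkn1b were higher by smaller amounts, Ccne1, Ccne2, Cdkn2a and Cdkn2b were low in every rat, and Myc had a lower mean in FL with groups that overlapped. With limma on log2(FPKM + 0.1) and Benjamini-Hochberg adjustment over the 14864 genes, 6 of the 9 members tested were higher in FL at an adjusted p under 0.05, where 16.9% of all genes tested were higher. No member (0 of 9) was lower, where 1.94% of all genes tested were lower, and at an unadjusted p under 0.05 the lower member was Myc (1 gene). DEGs, with an adjusted p under 0.05 and a change of at least 2-fold, numbered 3 among the members (Ccnd1, Ccne2 and Cdkn2c), against 9.29% of all genes tested that were upregulated DEGs. That count of 3 was 1 with a pseudocount of 1, no filter, a mean of at least 1 FPKM, median scaling or quantile normalization, 2 with a pseudocount of 0.01 or limma without trend, and 1 to 4 with 1 rat left out. In 7 of the 9 every FL rat was above every CL rat, which held for 35.7% of all genes tested. These counts are descriptions, because Cdkn2b reached the level needed for the test through its FL values.

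The whole table was shifted towards FL: the median log2 fold change of the 14864 genes was 0.29, and 77.9% of them were above 0. Median scaling divided each rat by its median ratio to the geometric gene means, over 9201 genes above 1 FPKM in every rat. It left a median log2 fold change of 0.08, and quantile normalization left -0.04. With median scaling 8.75% of all genes tested were higher in FL, and 1 of the 9 members was. With quantile normalization the figures were 5.23% and 1 of 9. The member was Cdkn2c under both. Over all genes, 2518 were higher and 288 lower without scaling. Median scaling gave 1301 higher against 533 lower, while quantile normalization gave 778 against 536. Log2 fold changes below are on the log2(FPKM + 0.1) scale unless another pseudocount is named, which understates the change of low genes, and SE is their moderated standard error. Folds of the CL mean are plain ratios of FPKM.

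**Figure D1:**
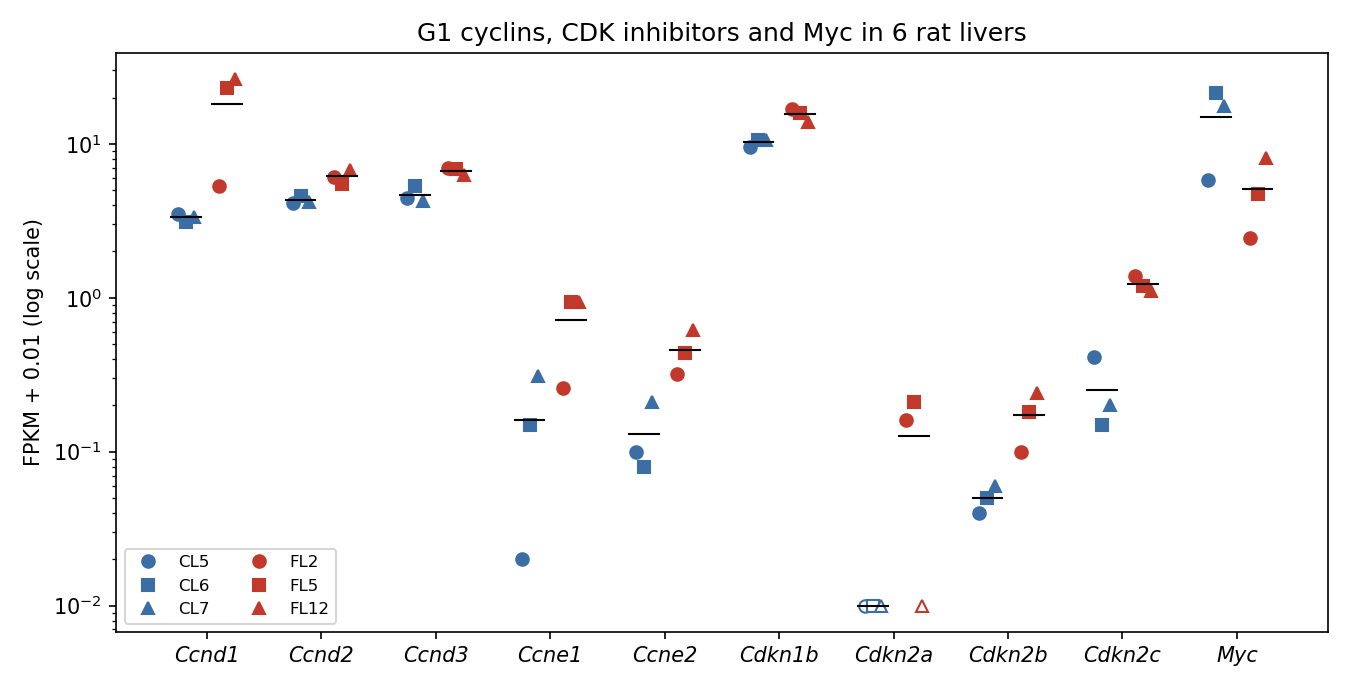
Level of each member in each rat, as FPKM + 0.01 on a log axis, with CL rats in blue, FL rats in red, black lines for group means and open symbols for a listed 0. Ccnd1 in FL5 and FL12 (23.2 and 26.3 FPKM) stands far above the other 4 rats, and Cdkn2c separates all 3 FL rats from all 3 CL rats.

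Ccnd1 (ENSRNOG00000020918, chromosome 1) encodes cyclin D1, the D cyclin that mitogens induce in hepatocytes. It was at 3.49 FPKM in CL5, 3.11 in CL6 and 3.35 in CL7, and at 5.35 in FL2, 23.2 in FL5 and 26.3 in FL12. The 3 controls lay close together, all 3 FL rats lay above them, and FL2 was much nearer to the controls than to the other FL rats. The means were 3.32 ± 0.192 FPKM (SD, n = 3) in CL and 18.3 ± 11.3 FPKM (SD, n = 3) in FL. Set against the CL mean, Ccnd1 was 1.61-fold in FL2, 6.98-fold in FL5 and 7.92-fold in FL12. The log2 fold change was 2.13 (SE 0.53, limma adjusted p = 0.0303), which is 1.84 above the median of all genes, with 3 of 3 FL rats above the highest control.

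The call of Ccnd1 depended on single libraries. Without FL2 the log2 fold change rose to 2.86 with a limma adjusted p of 0.000573, the lowest of its 14 alternatives, and without FL5 these were 1.81 and 0.116, the highest. It also missed 0.05 without CL5 (0.0800), without CL6 (0.0869), without CL7 (0.0970) and without FL12 (0.0999), as well as with median scaling (0.0508) and quantile normalization (0.0715), with no filter on low values (0.0523) and with limma without trend (0.0626). Ccnd1 passed the threshold in 5 of the 14. In the others its log2 fold change was 1.72 (without FL12) to 2.17 (without CL5), against 2.13 with all rats and no scaling. It was 1.91 with median scaling and 1.89 with quantile normalization.

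Ccnd2 (ENSRNOG00000057710, chromosome 4) encodes cyclin D2. Its level was 4.11 (CL5), 4.57 (CL6) and 4.19 (CL7) FPKM against 6.10 (FL2), 5.51 (FL5) and 6.80 (FL12). The groups did not overlap, and FL2 was not apart from the other FL rats. The means were 4.29 ± 0.246 FPKM in CL and 6.14 ± 0.646 FPKM in FL (SD, n = 3 each), with a log2 fold change of 0.50 (SE 0.13, limma adjusted p = 0.0356, range over 14 alternatives 0.0272 to 0.336). Relative to the median of all genes the change was 0.21, and it was 0.28 with median scaling and 0.21 with quantile normalization, neither of which passed (limma adjusted p = 0.174 and 0.336). The call was lost without CL5 (0.0994), CL6 (0.0720), CL7 (0.116), FL5 (0.0604) or FL12 (0.0948), and with limma without trend (0.0607), and it passed in 6 of the 14.

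Ccnd3 (ENSRNOG00000050258, chromosome 9) encodes cyclin D3, the D cyclin best known from lymphocytes and muscle. It was at 4.41 (CL5), 5.34 (CL6) and 4.22 (CL7) FPKM against 6.97 (FL2), 6.89 (FL5) and 6.25 (FL12). Every FL rat was above every CL rat, with CL6 the highest control. The means were 4.66 ± 0.599 and 6.70 ± 0.395 FPKM (SD, n = 3 each) and the log2 fold change was 0.52 (SE 0.14, limma adjusted p = 0.0352, range over 14 alternatives 0.0278 to 0.305), or 0.23 above the median of all genes. It was 0.30 with median scaling (limma adjusted p = 0.170) and 0.23 with quantile normalization (0.305). The call was lost without CL5 (0.0997), CL7 (0.125), FL2 (0.0579), FL5 (0.109) or FL12 (0.0626), and with limma without trend (0.0628), and it passed in 6 of the 14.

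Within a rat, the share of each D cyclin in their summed FPKM stays the same when all values of the rat are multiplied by 1 factor, as in median scaling. Shares were not computed after quantile normalization. Ccnd1 made up 29.1% (CL5), 23.9% (CL6) and 28.5% (CL7) of the sum against 29.0% (FL2), 65.1% (FL5) and 66.8% (FL12). The share in FL2 lay inside the control range, and in FL5 and FL12 Ccnd1 was the most abundant D cyclin. The group means of the Ccnd1 share were 27.1% ± 2.84 and 53.7% ± 21.3 (SD, n = 3 each), with an exact two-sided permutation p = 0.2, where 0.1 is the smallest that 3 against 3 can give.

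The share of Ccnd2 was 34.2% (CL5), 35.1% (CL6) and 35.6% (CL7) against 33.1% (FL2), 15.5% (FL5) and 17.3% (FL12). It was lower in every FL rat than in every control, although FL2 was below the lowest control by a small margin (exact two-sided permutation p = 0.1, the smallest possible). The share of Ccnd3 was 36.7% (CL5), 41.0% (CL6) and 35.9% (CL7) against 37.8% (FL2), 19.4% (FL5) and 15.9% (FL12), so FL2 lay inside the control range (exact two-sided permutation p = 0.3). Summed, the D cyclins came to 12.01 (CL5), 13.02 (CL6) and 11.76 (CL7) FPKM against 18.4 (FL2), 35.6 (FL5) and 39.3 (FL12), a sum formed after the values were seen. The summed level was above the controls in every FL rat.

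**Figure D2:**
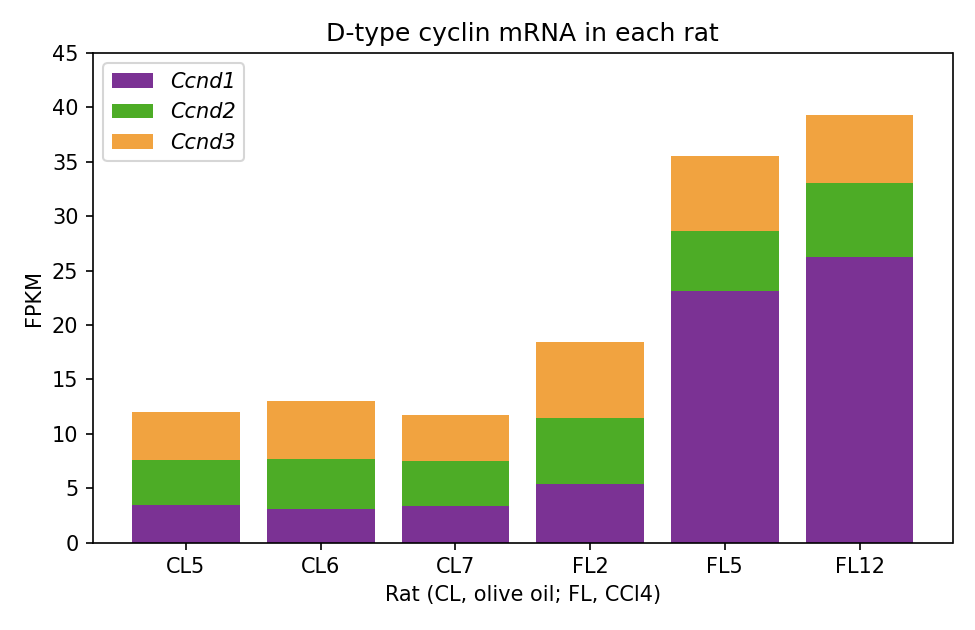
FPKM of Ccnd1, Ccnd2 and Ccnd3 stacked for each rat. The bars of FL5 and FL12 reach 35.6 and 39.3 FPKM, mostly Ccnd1, while FL2 at 18.4 FPKM has a Ccnd1 share of 29.0%, inside the control range.

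Ccne1 (ENSRNOG00000014786, chromosome 1) encodes cyclin E1, which activates Cdk2 at the entry to S phase. It was at 0.01 (CL5), 0.14 (CL6) and 0.30 (CL7) FPKM against 0.25 (FL2), 0.93 (FL5) and 0.93 (FL12). FL2 lay inside the control range and FL5 and FL12 above it, so the groups overlapped. The means were 0.15 ± 0.145 and 0.703 ± 0.393 FPKM (SD, n = 3 each), with a log2 fold change of 1.71 (SE 0.60, limma adjusted p = 0.0842, range over 13 alternatives 0.0324 to 0.248). Over the 13 the log2 fold change ran from 0.55 (pseudocount of 1) to 2.65 (pseudocount of 0.01). Without FL2 Ccne1 passed, with a log2 fold change of 2.23 and a limma adjusted p of 0.0324. In that comparison, of the 2 CCl4 rats left against the 3 controls, 21.5% of all genes tested were higher and 6 of the 9 members were.

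Ccne2 (ENSRNOG00000008055, chromosome 5) encodes cyclin E2, the second E cyclin. Its level was 0.09 (CL5), 0.07 (CL6) and 0.20 (CL7) FPKM against 0.31 (FL2), 0.43 (FL5) and 0.61 (FL12). The groups did not overlap, and all 6 values were low. The means were 0.12 ± 0.07 and 0.45 ± 0.151 FPKM (SD, n = 3 each), with a log2 fold change of 1.33 (SE 0.39, limma adjusted p = 0.0484, range over 13 alternatives 0.0352 to 0.231). It passed in 3 of the 13, and the call was lost without CL5 (0.123), CL6 (0.126), CL7 (0.0743), FL5 (0.117) or FL12 (0.123), with median scaling (0.0874), quantile normalization (0.231), a pseudocount of 1 (0.0577) or 0.01 (0.0510), and no filter on low values (0.0542). Over the 13 the log2 fold change ran from 0.37 (pseudocount of 1) to 1.90 (pseudocount of 0.01).

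Cdkn1b (ENSRNOG00000007249, chromosome 4) encodes p27, an inhibitor of the cyclin E and Cdk2 complex that is also controlled through its breakdown, which mRNA does not show. It was at 9.60 (CL5), 10.7 (CL6) and 10.6 (CL7) FPKM against 16.8 (FL2), 15.9 (FL5) and 14.0 (FL12). All 3 FL rats were above all 3 controls, and FL2 was the highest. The means were 10.3 ± 0.58 and 15.6 ± 1.46 FPKM (SD, n = 3 each), a log2 fold change of 0.59 (SE 0.12, limma adjusted p = 0.0145, range over 14 alternatives 0.0131 to 0.106). Relative to the median of all genes the change was 0.30. It was 0.37 with median scaling (limma adjusted p = 0.106) and 0.40 with quantile normalization (0.0911). The call was also lost without CL5 (0.0510), CL7 (0.0521) or FL5 (0.0585), and it passed in 9 of the 14.

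The level of Cdkn1b relative to the summed D cyclins was 0.799 (CL5), 0.818 (CL6) and 0.897 (CL7) against 0.912 (FL2), 0.448 (FL5) and 0.355 (FL12). This ratio was highest in FL2 and lowest in FL5 and FL12, so the groups overlapped (difference of mean log2 ratios -0.67, exact two-sided permutation p = 0.4). The difference was -1.07 without FL2 and -0.39 without FL12.

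Cdkn2c (ENSRNOG00000008956, chromosome 5) encodes p18, an INK4 inhibitor of Cdk4 and Cdk6. It was at 0.40 (CL5), 0.14 (CL6) and 0.19 (CL7) FPKM against 1.37 (FL2), 1.18 (FL5) and 1.09 (FL12). The lowest FL rat was above the highest control by a wide margin, and FL2 was the highest of all 6, unlike its place for Ccnd1. Set against the CL mean, Cdkn2c was 5.63-fold in FL2, 4.85-fold in FL5 and 4.48-fold in FL12. These folds rest on a low CL mean of 0.243 FPKM, and the CL range overlapped those of Ccne1 and Ccne2. The means were 0.243 ± 0.138 and 1.21 ± 0.143 FPKM (SD, n = 3 each), with a log2 fold change of 2.0 (SE 0.33, limma adjusted p = 0.00792). Cdkn2c passed in all 13 alternatives in which it was tested, with limma adjusted p from 0.00656 to 0.0475 and log2 fold changes from 0.84 (pseudocount of 1) to 2.40 (pseudocount of 0.01). It was not tested where a mean of at least 1 FPKM was required.

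Cdkn2b (ENSRNOG00000006735, chromosome 5) encodes p15, an INK4 inhibitor that TGF-beta is known to induce in epithelial cells. It was at 0.03 (CL5), 0.04 (CL6) and 0.05 (CL7) FPKM against 0.09 (FL2), 0.17 (FL5) and 0.23 (FL12). The groups did not overlap, at levels near the lower end of the table, and the mean over the 6 rats of 0.102 FPKM was just inside the limit for testing. The log2 fold change was 0.88 (SE 0.43, limma adjusted p = 0.182, range over 13 alternatives 0.0498 to 0.635), and the call appeared in 1 of the 13, limma without trend. Over the 13 the log2 fold change ran from 0.16 (pseudocount of 1) to 1.72 (pseudocount of 0.01).

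Cdkn2a (ENSRNOG00000059837, chromosome 5) encodes the INK4 inhibitor p16 and, from another reading frame, Arf. It was listed at 0 in CL5, CL6, CL7 and FL12, and at 0.15 FPKM in FL2 and 0.20 FPKM in FL5. Its mean of 0.0583 FPKM was below the limit of 0.1 FPKM for testing. No fold change is given, because every control was listed at 0, and with no filter on low values its limma adjusted p was 0.162. Cdkn2a and Cdkn2b are neighbours in the genome, both on the minus strand in the build GRCr8, so strand does not separate them. Whether the counting used strand was not given in the sources used here. Reads from any overlapping transcript on the other strand could therefore not be told apart.

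Myc (ENSRNOG00000004500, chromosome 7) was at 5.80 (CL5), 21.3 (CL6) and 17.6 (CL7) FPKM against 2.43 (FL2), 4.72 (FL5) and 8.13 (FL12). CL6 and CL7 were above every FL rat, while CL5 lay between FL5 and FL12, so the groups overlapped. The means were 14.9 ± 8.10 FPKM in CL and 5.09 ± 2.87 FPKM in FL (SD, n = 3 each). The log2 fold change was -1.49 (SE 0.55, limma adjusted p = 0.0943, range over 14 alternatives 0.0387 to 0.262), which did not pass. Relative to the median of all genes it was -1.78, and it was -1.71 with median scaling and -1.74 with quantile normalization. Without CL5 it passed, with a log2 fold change of -2.07 and a limma adjusted p of 0.0387.

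Max, the partner with which Myc binds DNA, was at 13.8 (CL5), 16.0 (CL6) and 14.3 (CL7) FPKM against 17.5 (FL2), 15.4 (FL5) and 15.1 (FL12). The ratio of Myc to Max was 0.421 (CL5), 1.33 (CL6) and 1.23 (CL7) against 0.139 (FL2), 0.307 (FL5) and 0.539 (FL12). CL5 again lay among the FL rats (difference of mean log2 ratios -1.64, exact two-sided permutation p = 0.2, smallest possible 0.1). Cdkn1a, the gene of the inhibitor p21, had its lowest value in each group in the same rats as Myc, at 5.29 (CL5), 13.1 (CL6) and 16.5 (CL7) FPKM against 3.18 (FL2), 10.5 (FL5) and 8.85 (FL12) (log2 fold change -0.64, SE 0.52, limma adjusted p = 0.411).

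**Figure D3:**
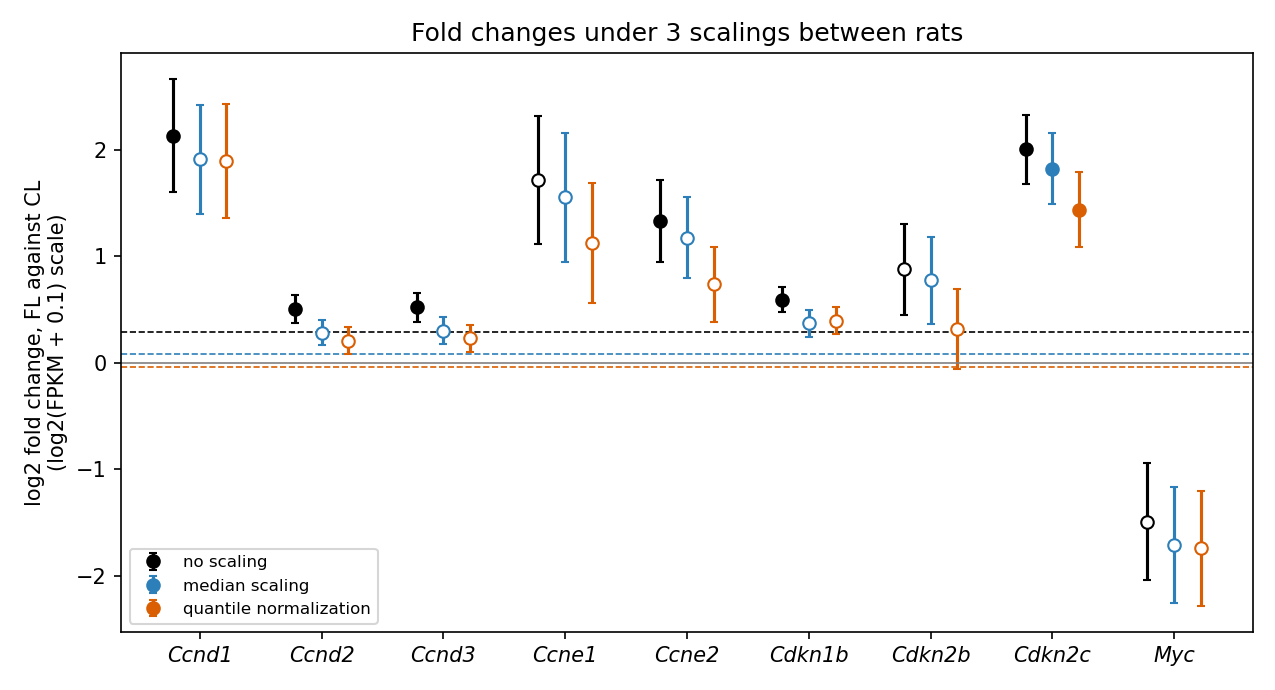
Log2 fold change of FL against CL with its moderated standard error (bars) for the 9 members tested, under no scaling, median scaling and quantile normalization, with filled symbols for a limma adjusted p under 0.05 and dashed lines for the median of all genes tested. Cdkn2c is filled under all 3, while Ccnd1, Ccnd2, Ccnd3, Ccne2 and Cdkn1b are filled without scaling only.

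The order of levels changed at its top. In CL the order of mean FPKM was Myc, Cdkn1b, Ccnd3, Ccnd2, Ccnd1, Cdkn2c, Ccne1, Ccne2, Cdkn2b and Cdkn2a, and of genes next to each other the ranges of the rats overlapped between Myc and Cdkn1b, Ccnd3 and Ccnd2, Cdkn2c and Ccne1, and Ccne1 and Ccne2. Farther apart in CL, Cdkn2c overlapped Ccne2, and Ccne1 overlapped Cdkn2b. In FL it was Ccnd1, Cdkn1b, Ccnd3, Ccnd2, Myc, Cdkn2c, Ccne1, Ccne2, Cdkn2b and Cdkn2a, with overlap of neighbours between Ccnd1 and Cdkn1b, Ccnd3 and Ccnd2, Ccnd2 and Myc, Ccne1 and Ccne2, and Cdkn2b and Cdkn2a. The FL range of Ccnd1, with FL2 at its lower end, also took in values of Ccnd3, Ccnd2 and Myc, and that of Myc overlapped Ccnd3. Ccnd1 moved from above 67.7% of all genes in CL to above 90.7% in FL by mean FPKM, and Myc from above 90.0% to above 71.3%.

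Among the partners of the members, Cdk4, the kinase of the D cyclins, was at 19.5 (CL5), 21.6 (CL6) and 21.4 (CL7) FPKM against 26.7 (FL2), 32.0 (FL5) and 32.7 (FL12) (log2 fold change 0.54, SE 0.12, limma adjusted p = 0.0209). Of the 8 kinases and kinase activators of G1 and S phase, 2 were higher, Cdk4 and Mnat1 (0.68, SE 0.13, limma adjusted p = 0.0115), and the median log2 fold change was 0.28, close to that of all genes, or 0.06 with median scaling and -0.09 with quantile normalization. Neither passed by limma with median scaling or quantile normalization (0 of 8 each, with 3 and 2 higher, and 1 lower in each, at an unadjusted p under 0.05). Cdk4 was also lost without CL5 (0.0694), CL6 (0.0571), CL7 (0.0672), FL5 (0.0769) or FL12 (0.0617) and with limma without trend (0.0526), and Mnat1 without FL5 (0.0512), in ranges over 14 alternatives of 0.0103 to 0.0911 and 0.00790 to 0.122. Cdk6 (0.07, SE 0.24, limma adjusted p = 0.856) and Cdk2 (0.12, SE 0.15, limma adjusted p = 0.611) did not pass. Of the CDK inhibitors outside the members, Cdkn1a and 1 other were tested by limma and 0 passed, with 0 at an unadjusted p under 0.05 as well.

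Downstream of the D cyclins, 0 of 3 pocket proteins passed with limma (2 were higher at an unadjusted p under 0.05), with a median log2 fold change of 0.34. Without FL2 the count was 1, Rbl1 (limma adjusted p = 0.0266, range over 14 alternatives up to 0.532). Rb1, the retinoblastoma gene, had a log2 fold change of 0.34 (SE 0.14, limma adjusted p = 0.127). Of 9 E2F factors and dimer partners tested, 1 was higher, Tfdp1 (0.89, SE 0.15, limma adjusted p = 0.00833), and the median was 0.25. The count of 1 was 2 with a pseudocount of 0.01 (E2f8 and Tfdp1), 3 without FL2 (E2f8, E2f1 and Tfdp1), and by limma with quantile normalization 0 (2 at an unadjusted p under 0.05), and it stayed 1 with median scaling and with any other rat left out. E2f8 was at 0.08 (CL5), 0.10 (CL6) and 0.09 (CL7) FPKM against 0.19 (FL2), 0.57 (FL5) and 0.73 (FL12) (log2 fold change 1.52, SE 0.45, limma adjusted p = 0.0518, range over 13 alternatives 0.00986 to 0.177, passing in 2). The CL mean of E2f8 was 0.09 FPKM. It reached the level needed for the test through its FL values, so its calls are descriptions. Tfdp1 missed 0.05 in 1 of 14 alternatives, quantile normalization (0.0559). E2f5 was lower in every FL rat than in every control, with a log2 fold change of -0.34 (limma adjusted p = 0.225), and it was called lower in 1 of 14 alternatives, quantile normalization (-0.81, adjusted p = 0.0471, range over the 14 up to 0.504). Each control had 0.16 FPKM of E2f1, against 0.15 (FL2), 0.50 (FL5) and 0.76 (FL12), for a log2 change of 0.96 (SE 0.48, limma adjusted p = 0.189, range over 13 alternatives 0.0216 to 0.588, the lowest without FL2, where it passed). As for Ccne1, FL2 was at the control level of E2f1. Of 8 ubiquitin ligase parts that act on G1 regulators, 0 passed with limma (2 were higher at an unadjusted p under 0.05) and the median was 0.06. By limma at that unadjusted p, 1 was higher and 2 were lower with median scaling. With quantile normalization 0 were higher and 2 were lower. Median scaling gave these 3 lists medians of 0.12, 0.03 and -0.16, and quantile normalization gave 0.04, -0.02 and -0.10. Among the ligase parts Skp2, which marks p27 for breakdown, had a log2 fold change of 1.13 (SE 0.42, limma adjusted p = 0.0974). Its CL mean was 0.0967 FPKM, so Skp2 too reached the level needed for the test through its FL values.

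The E2F targets of DNA replication were, in sum, highest in FL5 and FL12, the rats with the most Ccnd1. Of 14 tested, 7 were higher, with a median log2 fold change of 1.01 against 0.29 for all genes. Mcm5, a subunit of the replicative helicase, was at 0.25 (CL5), 0.39 (CL6) and 0.19 (CL7) FPKM against 0.78 (FL2), 1.86 (FL5) and 2.50 (FL12) (2.16, SE 0.42, limma adjusted p = 0.0137). Mcm5 missed 0.05 without CL7 (0.0588) and without FL5 (0.0646), in a range over 13 alternatives of 0.00433 to 0.0646. The others were Pcna (log2 fold change 0.75), Mcm2 (1.22), Mcm3 (1.86), Mcm6 (1.75), Cdt1 (1.80) and Tyms (1.04). The summed level of the list was 34.9 (CL5), 36.8 (CL6) and 32.8 (CL7) FPKM against 39.5 (FL2), 74.5 (FL5) and 75.9 (FL12). With median scaling 3 of the 14 passed and with quantile normalization 1. The median log2 fold change of the list was 0.8 and 0.6 under these, against 0.08 and -0.04 for all genes. The count was 4 with no filter on low values or with limma without trend. It was 10 without FL2, 2 without CL5, 1 without CL6 or FL12, and 0 by limma without CL7 or FL5 (8 at an unadjusted p under 0.05 in each).

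Of 9 genes of the Myc network tested, 1 was higher, Mycl, a relative of Myc, at 0.30 (CL5), 0.37 (CL6) and 0.47 (CL7) FPKM against 1.57 (FL2), 1.19 (FL5) and 1.76 (FL12) (log2 fold change 1.74, SE 0.25, limma adjusted p = 0.00559). Mycl was higher in every FL rat, where Myc had its lower mean. It passed in all 13 alternatives in which it was tested, with limma adjusted p up to 0.0372. Mycn, another relative, had a mean of 0.0767 FPKM and was not tested. It was at 0.03 (CL5), 0.01 (CL6) and 0 (CL7) FPKM against 0.08 (FL2), 0.17 (FL5) and 0.17 (FL12). With no filter on low values Mycn was called higher (limma adjusted p = 0.0377), at levels near the lower end of the table. The median of the network was 0.27 (0.05 with median scaling, -0.06 with quantile normalization), and Max had 0.12 (SE 0.12, limma adjusted p = 0.480). Of 10 Myc targets of ribosome and polyamine synthesis tested, 3 were higher, Ncl (0.56), Npm1 (0.70, the more abundant of 2 entries) and Odc1 (0.67), and 0 were lower by limma, at an adjusted or an unadjusted p under 0.05. Their median was 0.27, it was 0.05 with median scaling and -0.01 with quantile normalization, and 0 of 10 were higher by limma under either scaling (3 at an unadjusted p under 0.05 in each, and 1 lower with quantile normalization). The count of 3 was 1 without CL5, CL6 or CL7 and 2 without FL5.

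Markers of cycling cells were, in sum, also highest in FL5 and FL12. All 10 were measured, none was at 0 in all rats, and 3 were higher, Mki67 (log2 fold change 1.73), Birc5 (2.35) and Cenpf (1.88), with a median log2 fold change of 1.37. Their summed level was 4.36 (CL5), 8.21 (CL6) and 4.97 (CL7) FPKM against 6.68 (FL2), 29.2 (FL5) and 25.7 (FL12), with Cdc20 the most abundant by mean over all 6 rats and in CL, and Mki67 by mean in FL (3.87 against 3.68 FPKM). FL2 lay inside the control range for this sum, as it did for Ccne1, and without FL2 10 of 10 passed. The count was 2 with a pseudocount of 1, no filter on low values, limma without trend, limma with a robust prior, median scaling and without CL6. It was 2 of 5 with a mean of at least 1 FPKM. By limma it was 0 with quantile normalization and without CL5, CL7, FL5 or FL12 (3 were higher at an unadjusted p under 0.05 in each of these). Mki67 passed in 3 of 14 alternatives. The median log2 fold change of the list was 1.17 with median scaling and 0.87 with quantile normalization. The numbers above the highest control were 3 of 10 in FL2 and 10 of 10 in both FL5 and FL12. Their part in the result for Ccnd1 and Ccne1 was not tested.

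Summed markers of other liver cells differed between the groups as well, and in bulk samples fewer cells of a type cannot be told apart from less RNA per cell. The stellate cell or myofibroblast markers summed to 76.3 (CL5), 75.9 (CL6) and 70.3 (CL7) FPKM against 206 (FL2), 525 (FL5) and 473 (FL12), with Col3a1 the most abundant, and 5 of 7 tested were higher, a count that was 5 or 6 with any 1 rat left out. This sum was again nearest to the controls in FL2, and 1 of the 7, Lrat, had a log2 fold change of -0.07 (limma adjusted p = 0.758). The other stellate marker, Col1a2, was at 0.01 to 0.18 FPKM and was not tested. Cholangiocyte markers summed to 5.75 (CL5), 10.6 (CL6) and 6.32 (CL7) FPKM against 12.7 (FL2), 68.7 (FL5) and 42.4 (FL12), and 1 of 6, Spp1, was higher (0 by limma without CL7, FL5 or FL12, where 1, 2 and 2 were higher at an unadjusted p under 0.05, and 2 without FL2, Spp1 and Cftr). Cftr, with a CL mean of 0.0867 FPKM, reached the level needed for the test through its FL values. Spp1 was the most abundant by mean over all 6 rats and in FL. In every control Epcam was, at 4.22 (CL5), 6.02 (CL6) and 4.47 (CL7) FPKM against 0.37, 2.81 and 0.74 for Spp1. Without Spp1 the sum was 5.38 (CL5), 7.75 (CL6) and 5.58 (CL7) FPKM against 5.38 (FL2), 8.06 (FL5) and 11.3 (FL12), with FL2 at the lowest control. The duct keratins Krt19 and Krt7 had log2 fold changes of -0.01 (limma adjusted p = 0.981) and -0.82 (0.259).

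Macrophage markers had another order, summing to 93.6 (CL5), 89.0 (CL6) and 92.0 (CL7) FPKM against 220 (FL2), 196 (FL5) and 121 (FL12), with 4 of 7 higher (4 or 5 with any 1 rat left out). FL2 was highest for this sum and for 3 of the 7 markers (Clec4f, Marco and Itgam), and FL5 was highest for the other 4 (Cd68, Csf1r, Adgre1 and Cd163). Clec4f was the most abundant by mean over all 6 rats and in CL, while in FL the mean of Marco was higher (51.5 against 50.1 FPKM). The log2 fold change of Clec4f was -0.02 (limma adjusted p = 0.974). Lymphocyte markers, led by Ptprc, a gene of all leukocytes, summed to 5.46 (CL5), 4.99 (CL6) and 5.88 (CL7) FPKM against 12.7 (FL2), 16.5 (FL5) and 11.2 (FL12) (2 of 7 higher), a count that was 1 with median scaling, quantile normalization or without CL5, CL6 or FL5, and 3 without FL12. Without Ptprc the sum was 2.27 (CL5), 1.74 (CL6) and 2.76 (CL7) FPKM against 4.61 (FL2), 6.28 (FL5) and 2.52 (FL12), so FL12 lay inside the control range. Endothelial markers summed to 61.3 (CL5), 63.3 (CL6) and 55.8 (CL7) FPKM against 78.5 (FL2), 69.0 (FL5) and 75.0 (FL12), with 2 of 5 higher (Stab2 and Vwf), or 1 (Stab2) with either scaling, with limma without trend, and without CL5, CL6, FL5 or FL12, and 0 by limma without CL7 (2 at an unadjusted p under 0.05). Kdr was the most abundant by mean over all 6 rats and in CL, while in FL the mean of Lyve1 was higher (21.3 against 19.0 FPKM). The log2 fold change of Kdr was -0.21 (limma adjusted p = 0.354), and the sum without Kdr was 39.2 (CL5), 41.3 (CL6) and 34.7 (CL7) FPKM against 55.1 (FL2), 51.2 (FL5) and 59.1 (FL12). Hepatocyte markers, led by Alb, summed to 44420 (CL5), 42110 (CL6) and 42640 (CL7) FPKM against 33180 (FL2), 35520 (FL5) and 34740 (FL12), with 0 of 7 passing by limma in either direction (2 were higher at an unadjusted p under 0.05), and 2 higher without FL2, Apoa1 and Tat. Apoa1 alone was also called higher with limma without trend, limma with a robust prior and a mean of at least 1 FPKM (1 of 7 each), with limma adjusted p from 0.0218 to 0.306 over 14 alternatives. At an unadjusted p under 0.05 by limma, Ttr was lower in each of these settings. Alb was lower as well without trend, and Hnf4a was lower with median scaling. In unscaled FPKM, Apoa1 was above every control in every FL rat, while Alb, Ttr and Hnf4a were below. The log2 fold change of Alb was -0.38 (SE 0.98) unscaled but 0.49 with quantile normalization. That SE is moderated by the trended prior, while the FPKM of Alb were 32270 ± 1010 in CL and 24800 ± 572 in FL (SD, n = 3 each). Without trend the limma adjusted p was 0.0789 for Alb and 0.0545 for Ttr, for each the lowest of 14 alternatives. The median of the list was 0.0, -0.22 with median scaling and 0.38 with quantile normalization. No marker of these lists was at 0 in all rats. Their part in the results for the members was not tested.

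For each member tested, the 3 genes with the nearest profile were found by the root mean square difference over the 6 rats of log2 values centred on each gene's mean. For Ccnd1 they were Col11a1 (0.21), Pdlim3 (0.22) and Glt8d2 (0.22), and for Ccne1 Igfbp5 (0.17), Ttll9 (0.31) and AABR07052611.1 (0.31). For Cdkn2c they were RT1-Db1 (0.16), Hist1h4m (0.17) and Lpxn (0.19), and for Myc Dhrs9 (0.37), AABR07026377.1 (0.37) and SNORD88 (0.42). Profiles with small changes had nearer neighbours: Ccnd2 had Oxa1l (0.02), Nomo1 (0.03) and Bud31 (0.04), Ccnd3 had Ergic2 (0.05), Evi5l (0.05) and Ppp3cc (0.05), and Cdkn1b had Ppt2 (0.03), Rras (0.04) and Sap25 (0.05). For Ccne2 they were Naaa (0.11), B4galt5 (0.12) and Chst9 (0.12), and for Cdkn2b Gpm6b (0.06), Crocc (0.07) and Lzts2 (0.07).

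The RefSeq table of promoters (build GRCr8) held 6 of the 10 members, and the 250 bases before the start of each were searched on both strands and set beside 33469 windows of the same length. The members missing from it are Ccnd1, Ccnd2, Ccne2 and Myc. The GC box GGGCGG was found in 6 of 6 members and in 30.5% of all windows, in a set whose GC content was 60.8% to 72.8% against a median of 51.2%. The box CCAAT was found in Cdkn1b and Ccnd3, and in 34.0% of all windows. The CRE motif TGACGTCA was found in Cdkn2b, its first letter 96 bases before the start, and in 1.59% of all windows. The motifs found in no member window were the E2F motif (TTTCCCGC, TTTCGCGC, TTTGCCGC or TTTGGCGC, in 1.73% of all windows), the E-box of Myc and Max (CACGTG, in 5.59%), the AP-1 motif (TGACTCA, in 4.05%) and the TATA box (TATAAA, in 12.9%). No match overlapped one of another motif, and a match is a description of letters only.

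The windows of Cdkn2c, Cdkn1b and Ccnd3 are shown because these are the matched members that were higher in FL, and that of Cdkn2b because it held the CRE motif. They lie at chr5:129644892-129645141 (minus strand) for Cdkn2c, chr4:169491254-169491503 (plus strand) for Cdkn1b, chr9:20897876-20898125 (minus strand) for Ccnd3 and chr5:109134856-109135105 (minus strand) for Cdkn2b in GRCr8. Each is given 5′ to 3′ on the strand of the gene, with matches to the motifs above in capitals.
Cdkn2c: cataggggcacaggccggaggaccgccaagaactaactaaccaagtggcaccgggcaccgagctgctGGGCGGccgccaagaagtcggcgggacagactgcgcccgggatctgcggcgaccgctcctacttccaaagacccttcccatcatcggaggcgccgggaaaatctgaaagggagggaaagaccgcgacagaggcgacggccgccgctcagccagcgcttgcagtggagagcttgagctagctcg
Cdkn1b: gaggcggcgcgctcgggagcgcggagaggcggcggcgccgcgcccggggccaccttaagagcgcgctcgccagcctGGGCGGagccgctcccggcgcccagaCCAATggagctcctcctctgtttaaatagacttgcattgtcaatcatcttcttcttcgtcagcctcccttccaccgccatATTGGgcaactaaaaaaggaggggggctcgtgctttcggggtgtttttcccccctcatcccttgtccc
Ccnd3: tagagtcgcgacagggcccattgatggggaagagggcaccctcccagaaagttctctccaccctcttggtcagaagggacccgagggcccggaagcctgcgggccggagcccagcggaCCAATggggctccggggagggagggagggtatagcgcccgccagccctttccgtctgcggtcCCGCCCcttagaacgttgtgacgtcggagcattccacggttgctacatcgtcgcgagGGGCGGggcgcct
Cdkn2b: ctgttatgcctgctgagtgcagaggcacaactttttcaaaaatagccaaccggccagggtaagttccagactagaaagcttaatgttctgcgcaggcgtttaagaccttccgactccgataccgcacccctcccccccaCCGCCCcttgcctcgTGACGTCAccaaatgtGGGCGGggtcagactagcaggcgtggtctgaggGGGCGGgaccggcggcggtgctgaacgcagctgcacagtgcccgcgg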

How the data were processed

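Gene expression was measured by RNA-seq in liver pieces of 6 rats, 3 CL and 3 FL, each labelled as a separate rat. The authors deposited a table of FPKM values per gene, with Ensembl rat gene IDs and symbols. The submitters' processing notes name TopHat2 and the build GRCh38, a human build, so the build behind the chromosomes given is uncertain. The strand setting and the read total of each library were not given in the sources used here. The table also holds 2 columns of values that match no sample label and were not used. No 2 of the 6 libraries were copies, since at most 2.87% of values above 0 were identical between a pair.

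Values were transformed as log2(FPKM + 0.1), and genes averaging 0.1 FPKM or more across all 6 rats were fitted with limma 3.58.1 (R 4.3.3, trended prior), with Benjamini-Hochberg adjustment over all of them. The paper's own comparison used edgeR, run by the authors on counts not analysed here. Shares and ratios were compared with an exact two-sided permutation test over 20 assignments. Alternatives were pseudocounts of 1 and 0.01, no filter, a mean of at least 1 FPKM, median scaling (over 9201 genes), quantile normalization, limma without trend, limma with a robust prior, and each rat left out. Limma p-values rest on the spread between these rats after it is moderated towards a trend over genes of similar level. For very abundant genes that moderated spread can be far wider than the spread of the rats themselves, as for Alb.

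The genes named were the 10 members, the called genes of each pathway list, a fixed set (Cdk2, Cdk4, Cdk6, Cdkn1a, Rb1, E2f1, Skp2 and Max), the most abundant gene of each marker list, and the 3 nearest profiles of each member. E2f5, E2f8, Rbl1, Mycn, and the markers named beside the most abundant of each list, were named after their values were seen. The members and lists were chosen with earlier results of these data known. The code was tested on simulated data. Python 3.11.15, pandas 2.3.3, numpy 2.4.6, scipy 1.17.1 and matplotlib 3.10.9 were used.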

Additional observations from a re-analysis of the deposited data

How the results depend on the processing

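No log2 fold change of a member reversed in the alternatives run. Of 122 values, 79 kept their side of the threshold, 40 fell below it and 3 passed it: Ccne1 without FL2, Cdkn2b without trend and Myc without CL5. The count of members higher in FL, 6 without scaling, was 4 with limma without trend (Cdkn2b, Cdkn2c, Ccne2 and Cdkn1b), 1 with median scaling, 1 with quantile normalization, and 1 to 6 when 1 rat was left out. Over all genes, the 2518 higher became 1301 with median scaling, 778 with quantile normalization and 898 to 3190 with 1 rat left out. The 288 lower became 533, 536 and 118 to 337 in the same order. The 1381 upregulated DEGs became 462 with a pseudocount of 1, 854 with a mean of at least 1 FPKM, 826 with median scaling, 453 with quantile normalization and 682 to 1833 with 1 rat left out. The 139 downregulated DEGs became 72 with a pseudocount of 1, 231 with quantile normalization and 80 to 159 with 1 rat left out. The highest of the left-out counts came without FL2. Shares and ratios kept their direction but not their size when 1 rat was left out: the Ccnd1 share difference of 26.5 points became 19.9 to 38.8, and the Cdkn1b to D cyclin difference of -0.67 became -1.07 to -0.39. With 3 rats against 3 their exact test could not pass 0.05. No paired analysis was made, because the rats were divided at random between the groups and no pairing was named. The number shared by CL5 and FL5 does not pair them. Levels under about 0.1 FPKM, as for Cdkn2a and Cdkn2b, rest on a number of reads that was not analysed here.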
